A study of Mus musculus with 8 samples.

Results

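The genes described here are the ligand transforming growth factor beta 1 (Tgfb1), its receptors (Tgfbr1, Tgfbr2 and Tgfbr3), the SMAD proteins that carry the signal or block it (Smad2, Smad3, Smad4 and Smad7), and the nuclear repressors Ski and Skil. They were chosen by name, as all probe sets that the platform annotation gives to 1 of these 10 genes, which yielded 24 of the 45037 probe sets tested. The samples were mouse CD4+ T cells sorted by flow cytometry from male mice whose single Foxp3 allele carried an EGFP reporter, and each of the 8 samples was hybridised to an Affymetrix array of its own. Mutant EGFP-positive cells expressed the tagged delta allele of Foxp3 (3 arrays), and WT EGFP-positive cells expressed the tagged wild-type allele (3 arrays). The EGFP-negative CD4+ cells of mutant mice and of WT mice had 1 array each.

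All 8 samples therefore came from mice with a tagged Foxp3 allele, and none from untagged mice. The delta allele leaves the mice without functional Foxp3. The sources used here do not give the age, strain, organ or number of mice behind a sample. Nothing states that the arrays of a group came from separate mice, so p-values reflect only how far these arrays scatter, which may be technical. In sorted populations, fewer cells of a type and less RNA per cell cannot be told apart.

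TGF-beta is secreted bound to a latency peptide and is freed by integrins or proteases. The active ligand binds TGFBR2, which phosphorylates TGFBR1, and TGFBR3 (betaglycan) presents ligand to this pair. TGFBR1 phosphorylates SMAD2 and SMAD3, which join SMAD4 and enter the nucleus. SMAD7 is induced by the signal and blocks the receptor, while SKI and SKIL (SnoN) hold SMAD complexes in a repressed state. In CD4+ T cells the pathway restrains effector differentiation, and with interleukin 2 it can induce Foxp3.

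The promoters of 4 genes that were lower in mutant EGFP-positive cells are shown because these genes moved in the same direction. RefSeq gene starts on GRCm38.p6 gave the 250 bases before the start for 5 of the 10 genes, written 5′ to 3′ on the coding strand. Tgfbr1 lies at chr4:47352972-47353221 on the plus strand, and Tgfbr2 at chr9:116175364-116175613 on the minus strand. Smad3 lies at chr9:63757995-63758244 and Ski at chr4:155222536-155222785, both on the minus strand. Capitals mark the SMAD-binding letters CAGAC.
Tgfbr1: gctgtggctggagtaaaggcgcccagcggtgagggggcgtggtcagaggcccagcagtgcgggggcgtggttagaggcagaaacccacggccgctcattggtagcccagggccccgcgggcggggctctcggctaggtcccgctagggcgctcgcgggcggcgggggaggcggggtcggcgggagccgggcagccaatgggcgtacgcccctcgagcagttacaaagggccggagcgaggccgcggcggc
Tgfbr2: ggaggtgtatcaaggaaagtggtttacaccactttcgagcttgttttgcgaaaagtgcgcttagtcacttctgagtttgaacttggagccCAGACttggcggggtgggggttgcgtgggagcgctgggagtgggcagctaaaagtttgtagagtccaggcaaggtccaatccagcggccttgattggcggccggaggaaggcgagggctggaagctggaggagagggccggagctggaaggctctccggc
Smad3: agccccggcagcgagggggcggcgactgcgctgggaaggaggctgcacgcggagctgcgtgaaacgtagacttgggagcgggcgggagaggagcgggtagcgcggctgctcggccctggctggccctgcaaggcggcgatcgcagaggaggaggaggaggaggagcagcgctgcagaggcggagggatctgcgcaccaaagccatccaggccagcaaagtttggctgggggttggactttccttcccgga
Ski: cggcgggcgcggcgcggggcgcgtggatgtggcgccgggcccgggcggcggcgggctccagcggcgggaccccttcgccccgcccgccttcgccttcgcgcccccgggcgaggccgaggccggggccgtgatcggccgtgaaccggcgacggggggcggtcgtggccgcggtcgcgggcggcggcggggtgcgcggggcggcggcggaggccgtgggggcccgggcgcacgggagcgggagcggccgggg

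CAGAC was searched on both strands, with overlap allowed, and was found once among these 4 promoters, in Tgfbr2, starting 160 bases before the gene start. The same letters stood in 42.2% of the 32817 mouse promoters of this length, so a match is common. The palindrome GTCTAGAC (0.168% of all promoters) and the AP-1 letters TGANTCA (6.75%) matched none of the 4. The base composition ranged widely, with 87.6% G or C before Ski, 74.8% before Tgfbr1, 69.2% before Smad3 and 58.4% before Tgfbr2. The match describes the sequence only.

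The deposited values are intensities made by the authors with RMA, a method that corrects background, applies quantile normalization and summarises each probe set, and all levels below are their log2. Array medians lay between 53.3 and 54.7 on the linear scale. The Foxp3 probe set checked the labels: it read 11.10, 11.51 and 11.21 on the mutant EGFP-positive arrays, against 4.75, 4.86 and 4.64 on the arrays labelled WT EGFP-positive. It read 6.14 on the mutant EGFP-negative array and 4.52 on the WT EGFP-negative array. The low values of this Foxp3 probe set go against the label of the WT EGFP-positive arrays, and all directions below rest on the labels. Other markers of regulatory T cells went with the EGFP-positive part of that label. They were not used to check its allele part, and why the Foxp3 probe set read low was not tested. Il2ra read 9.06, 9.45 and 9.07 on mutant EGFP-positive arrays, against 9.82 to 10.02 on those labelled WT EGFP-positive. Its value was 7.47 on the mutant EGFP-negative array and 5.38 on the WT EGFP-negative array. Ikzf2 read 12.26, 12.13 and 12.09 on WT EGFP-positive arrays, against 7.98 on the WT EGFP-negative array. Of 6 such markers, limma called 5 higher in WT EGFP-positive than in WT EGFP-negative cells, all but Foxp3, against 1.02% of all genes. The CD4 T cell markers were high on all 8 arrays, with Cd4 between 11.07 and 11.42.

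Most of the 10 genes were lower in mutant EGFP-positive cells than in WT EGFP-positive cells. Of the 10, 7 had at least 1 probe set that fell (Tgfbr1, Tgfbr2, Smad3, Smad4, Smad7, Ski and Skil), 1 had a probe set that rose (Tgfbr3), and Tgfb1 and Smad2 had none that passed the test. Per probe set, 15 of 24 fell and 1 rose at an adjusted p under 0.05 by limma, against 5.39% lower and 7.35% higher of all probe sets. Among probe sets with a mean above the array median, where 23 of the 24 lie, the background was 9.54% lower and 13.1% higher. With 1 array left out, the count of 16 was 14 without WT EGFP-positive replicate 2 and between 7 and 10 without each of the other 5 EGFP-positive arrays. Over all 45037 probe sets, 3308 were called higher and 2426 lower with all arrays. Those counts were 3791 and 3765 without WT EGFP-positive replicate 2. Without each of the other 5 arrays, 2081 to 2573 were higher and 1267 to 2050 lower. The median difference of the 24 was -0.68, against -0.01 over all probe sets. In 17 probe sets every mutant array lay below every WT array, and in 3 every mutant array lay above, where 13.4% and 15.6% of all probe sets did so. The direction of these differences was the same in each of the 7 genes for every probe set that passed the test.

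**Figure D1:**
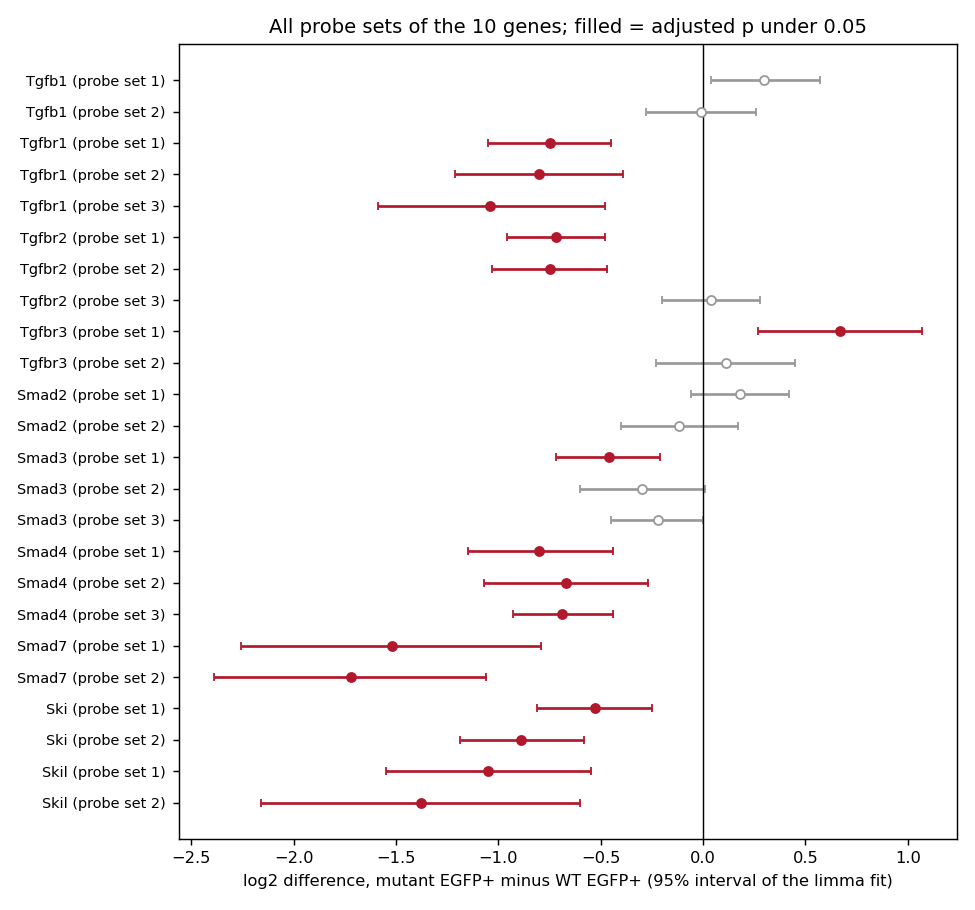
Log2 difference of mutant EGFP-positive minus WT EGFP-positive cells (horizontal axis) for the 24 probe sets of the 10 genes, with the 95% interval of the limma fit. Filled points have an adjusted p under 0.05: 15 lie left of 0 and 1, a Tgfbr3 probe set, lies right of it.

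Tgfb1 encodes the ligand. Its brighter probe set (1420653_at) read 10.17, 10.39 and 10.14 in mutant EGFP-positive cells, against 9.89, 9.95 and 9.94 in WT EGFP-positive cells. Every mutant array lay above every WT array, but the difference of 0.30 (SE 0.11) did not pass the test (adjusted p = 0.14, limma). The dimmer probe set (1445360_at) overlapped between the groups, with a difference of -0.01 and an adjusted p of 0.98.

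Tgfbr2 encodes the receptor that binds the ligand first. Its brightest probe set (1426397_at) read 10.97, 11.11 and 10.99 in mutant EGFP-positive cells, against 11.73, 11.73 and 11.78 in WT EGFP-positive cells. The groups did not overlap and varied little within themselves, with means of 11.03 ± 0.07 and 11.75 ± 0.03 (SD, n = 3 arrays each). The level fell 1.65-fold, a difference of -0.72 (SE 0.10, adjusted p = 0.0038, limma). A second probe set (1425444_a_at) averaged 8.80 ± 0.05 in mutant and 9.55 ± 0.17 in WT EGFP-positive cells and fell by 0.75 (adjusted p = 0.0069). The remaining one (1422019_at) read between 3.65 and 3.82 on all arrays, among the dimmest of the platform, and its difference of 0.04 did not pass the test.

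Tgfbr1 encodes the kinase that phosphorylates the SMADs. The brightest of its 3 probe sets (1420895_at) read 9.77, 9.80 and 9.91 in mutant EGFP-positive cells, against 10.55, 10.78 and 10.40 in WT EGFP-positive cells. The groups did not overlap, and the level fell 1.68-fold (difference -0.75, SE 0.13, adjusted p = 0.0088, limma). The other Tgfbr1 probe sets fell by 0.80 (1420893_a_at, adjusted p = 0.023) and 1.04 (1420894_at, adjusted p = 0.027). The call on 1420893_a_at was lost without mutant EGFP-positive replicate 1 (adjusted p = 0.093), mutant replicate 2 (0.085) or WT EGFP-positive replicate 3 (0.078). The call on 1420894_at was lost without mutant replicate 1 (0.11), mutant replicate 2 (0.099) or WT replicate 1 (0.062).

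Tgfbr3 encodes betaglycan, the coreceptor, and was the 1 receptor gene of the 3 that rose. Its brighter probe set (1433795_at) read 9.50, 9.87 and 9.96 in mutant EGFP-positive cells, against 9.12, 8.86 and 9.34 in WT EGFP-positive cells. The groups did not overlap, and the level rose 1.59-fold (difference 0.67, SE 0.17, adjusted p = 0.042). The call was lost when 1 of 4 arrays was left out: mutant replicate 2 (adjusted p = 0.13), mutant replicate 3 (0.12), WT replicate 1 (0.12) or WT replicate 2 (0.07). The dimmer probe set (1425620_at) overlapped between the groups, with a difference of 0.11 and an adjusted p of 0.74.

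Of the SMADs that the receptor phosphorylates, Smad3 passed the test and Smad2 did not. Smad2 read 9.49, 9.63 and 9.51 on its brighter probe set (1420634_a_at) in mutant EGFP-positive cells, against 9.31, 9.34 and 9.42 in WT EGFP-positive cells. Each mutant array was above each WT array, yet the difference of 0.18 (SE 0.10) did not pass (adjusted p = 0.34). The other Smad2 probe set (1442062_at) gave a difference of -0.12 (adjusted p = 0.65). Smad3 read 8.72, 8.70 and 8.60 on its brightest probe set (1454960_at) in mutant EGFP-positive cells, against 9.26, 9.03 and 9.13 in WT EGFP-positive cells. The groups did not overlap, and Smad3 fell 1.38-fold (difference -0.46, SE 0.11, adjusted p = 0.031, limma). Its other probe sets gave -0.30 (1450472_s_at) and -0.22 (1450471_at), each with an adjusted p of 0.21. The Smad3 call was lost when any 1 of 5 arrays was left out, with adjusted p between 0.079 and 0.11, all but WT EGFP-positive replicate 2. The difference between the 2 genes' changes was not tested.

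Smad4 encodes the partner that all receptor-regulated SMADs share, and all 3 of its probe sets fell. The probe set 1422486_a_at read 10.39, 10.36 and 10.46 in mutant EGFP-positive cells, against 11.46, 10.90 and 11.22 in WT EGFP-positive cells. The mutant arrays were close together and below all WT arrays, a 1.74-fold fall (difference -0.80, SE 0.15, adjusted p = 0.013). On 1422485_at the means were 9.84 ± 0.09 in mutant and 10.52 ± 0.06 in WT EGFP-positive cells (SD, n = 3 arrays each), with a difference of -0.69 (adjusted p = 0.0057). The difference was -0.67 on 1422487_at, with means of 10.27 ± 0.25 in mutant and 10.94 ± 0.23 in WT EGFP-positive cells (adjusted p = 0.042). That call was lost without mutant EGFP-positive replicate 1 (adjusted p = 0.14), mutant replicate 3 (0.12), WT EGFP-positive replicate 1 (0.14) or WT replicate 2 (0.066). The call on 1422486_a_at was lost without mutant replicate 1 (0.055), mutant replicate 2 (0.054) or WT replicate 3 (0.05), and that on 1422485_at was kept in each case.

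Smad7, the inhibitory SMAD, had the largest fall among the brightest probe sets of the 10 genes. Its brighter probe set (1423389_at) read 8.72, 8.52 and 8.13 in mutant EGFP-positive cells, against 10.49, 9.23 and 10.22 in WT EGFP-positive cells. The groups did not overlap, and WT EGFP-positive replicate 2 was the lowest of its group. The level fell 2.88-fold (difference -1.52, SE 0.32, adjusted p = 0.019). The second probe set (1443771_x_at) read 6.43, 6.05 and 5.53 in mutant EGFP-positive cells, against 8.04, 7.18 and 7.95 in WT EGFP-positive cells. It fell 3.30-fold (difference -1.72, SE 0.29, adjusted p = 0.0076), again with WT EGFP-positive replicate 2 the lowest of its group, and passed without each EGFP-positive array in turn. The call on 1423389_at was lost without mutant replicate 2 (adjusted p = 0.06), mutant replicate 3 (0.058), WT replicate 1 (0.063) or WT replicate 3 (0.07).

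Skil encodes SnoN. Its brighter probe set (1452214_at) read 11.09, 10.67 and 10.95 in mutant EGFP-positive cells, against 12.22, 11.48 and 12.16 in WT EGFP-positive cells. All mutant arrays lay below all WT arrays, and WT EGFP-positive replicate 2 was again nearest to them, for a 2.07-fold fall (difference -1.05, SE 0.22, adjusted p = 0.018). The dimmer probe set (1422054_a_at) averaged 6.38 ± 0.32 in mutant and 7.76 ± 0.71 in WT EGFP-positive cells and fell 2.59-fold (adjusted p = 0.035). Its call was lost without any 1 EGFP-positive array but WT replicate 2, at adjusted p between 0.07 and 0.12. The call on the brighter probe set was lost without mutant replicate 2 (adjusted p = 0.069), WT replicate 1 (0.069) or WT replicate 3 (0.067).

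Ski, the relative of Skil, varied less within the groups. Its probe set 1426373_at read 8.95, 9.22 and 9.07 in mutant EGFP-positive cells, against 9.81, 10.14 and 9.95 in WT EGFP-positive cells. The groups did not overlap, and the level fell 1.85-fold (difference -0.89, SE 0.13, adjusted p = 0.0045). The brighter probe set (1429192_at) read 9.43, 9.24 and 9.32 in mutant EGFP-positive cells, against 9.76, 9.80 and 10.03 in WT EGFP-positive cells. It fell 1.44-fold (difference -0.53, SE 0.12, adjusted p = 0.026). This call was lost without any 1 EGFP-positive array but WT replicate 2, at adjusted p between 0.054 and 0.095, while that on 1426373_at was kept.

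**Figure D2:**
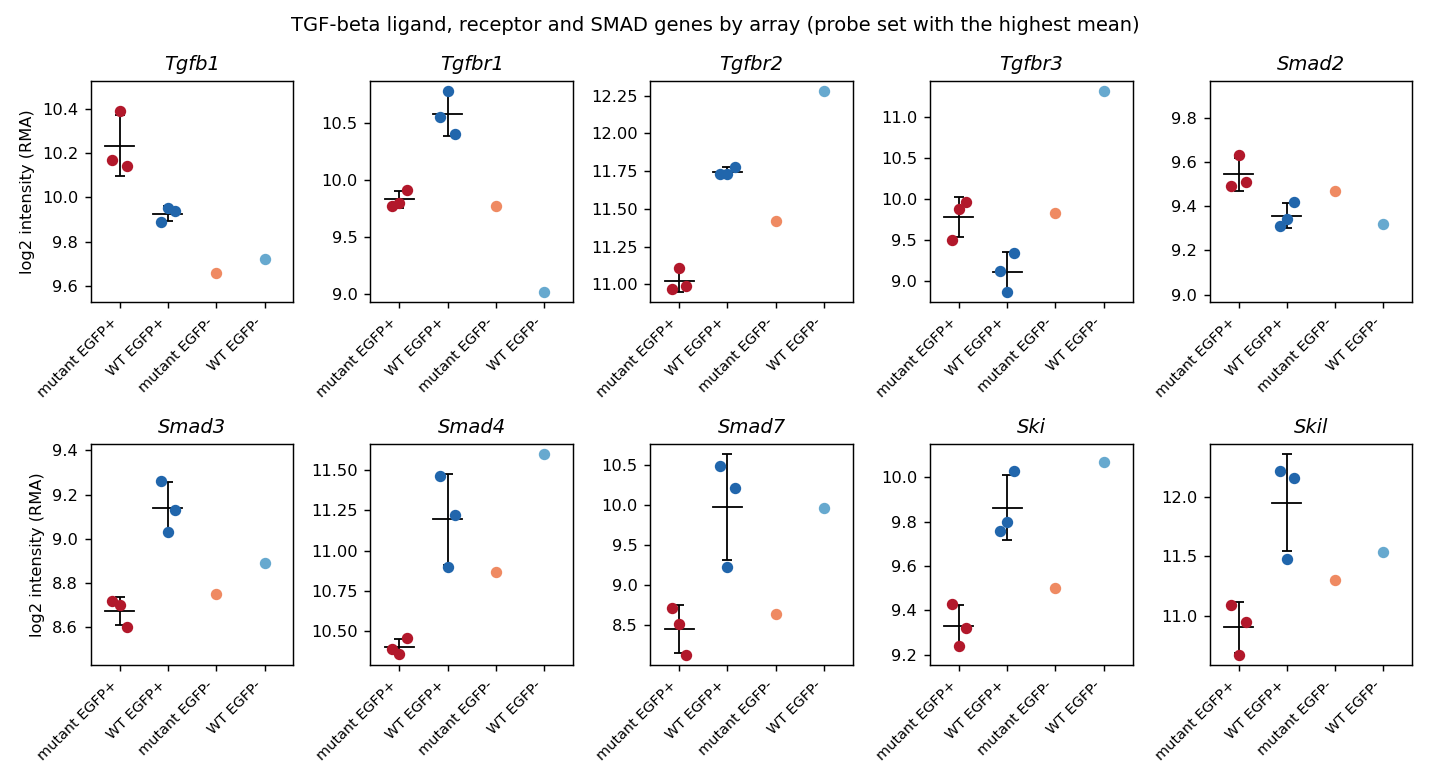
Log2 intensity (vertical axis) of each of the 10 genes on its probe set with the highest mean, with 1 point per array in the 4 groups. Mutant EGFP-positive arrays lie below all WT EGFP-positive arrays for Tgfbr1, Tgfbr2, Smad3, Smad4, Smad7, Ski and Skil, and above them for Tgfb1, Tgfbr3 and Smad2.

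Genes of cell handling stress, such as Fos, Jun and the heat shock genes, ran in parallel with some of these values. The mean log2 level of 24 such genes was 9.90, 9.79 and 8.88 on mutant EGFP-positive replicates 1 to 3, against 10.75, 9.75 and 10.83 on WT EGFP-positive replicates 1 to 3. It was 9.47 on the mutant EGFP-negative array and 9.89 on the WT EGFP-negative array. Of the 24 genes, 7 fell and 1 rose in mutant EGFP-positive cells, against 6.02% lower and 10.4% higher of all genes on their brightest probe set. The lowest array of each group in this list was also the lowest for Smad7, with 8.13 on mutant EGFP-positive replicate 3 and 9.23 on WT EGFP-positive replicate 2. Without both arrays, the Smad7 difference was -1.73 on 1423389_at (adjusted p = 0.00045), and Skil gave -1.31 on 1452214_at (adjusted p = 0.0021). The Tgfbr3 difference was then 0.45 on 1433795_at and no longer passed (adjusted p = 0.13), and 12 of the 24 probe sets were called. All 12 were lower in mutant cells. In that fit, 3630 of all 45037 probe sets were called higher and 4342 lower, against 3308 and 2426 with all arrays.

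**Figure D3:**
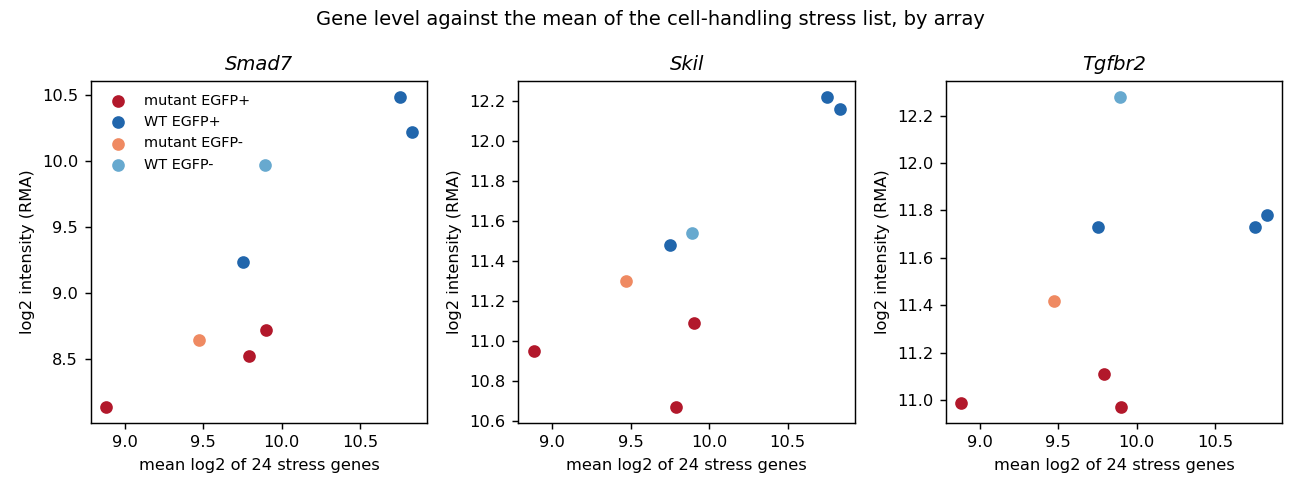
Log2 intensity of Smad7, Skil and Tgfbr2 (vertical axes) against the mean log2 level of 24 stress genes on the same array (horizontal axis), with 1 point per array and colours for the 4 groups. For Smad7 and Skil the WT EGFP-positive array with the lowest stress mean, 9.75, is the lowest of its group.

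With the stress mean as a covariate, 7 of the 24 probe sets were called, all lower in mutant cells, against 3.53% lower and 3.87% higher of all probe sets in that fit. These were all 3 probe sets of Tgfbr1 and 1 each of Tgfbr2, Smad4, Ski and Smad7, the last on its dimmer probe set with a difference of -1.02. The brighter Smad7 probe set gave -0.78 (adjusted p = 0.092), the brighter Skil probe set -0.73 (adjusted p = 0.16) and Smad3 -0.34 (adjusted p = 0.27). Tgfbr3 was no longer called either (adjusted p = 0.15). The stress mean itself differed in part between the groups, so that fit cannot tell it apart from the allele. The covariate also lowers the residual degrees of freedom. Junb was in the stress list and in the list of genes known to be induced by TGF-beta.

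Cell cycle genes also separated the groups, with means of 10.76, 10.60 and 10.87 in mutant EGFP-positive cells, against 8.27, 7.62 and 8.69 in WT EGFP-positive cells. The mutant EGFP-negative array had 9.94 and the WT EGFP-negative array 7.45. Summed intensities of 3 NK cell markers were 144 to 173 in mutant EGFP-positive cells and 75.4 to 85.7 in WT EGFP-positive cells. Klrk1 carried that sum, at 6.60 to 6.81 in mutant and 4.76 to 5.10 in WT EGFP-positive cells on the log2 scale, while Ncr1 and Klra8 overlapped between the groups. Those of 4 stromal markers were 556 to 653 in mutant and 914 to 1120 in WT EGFP-positive cells. There Pecam1, which endothelial and blood cells also express, carried the sum, at 8.31 to 8.83 in mutant and 9.52 to 9.86 in WT EGFP-positive cells, and Col1a2 was higher in mutant, at 5.98 to 6.29 against 5.51 to 5.87. CD8 markers summed to 156 to 628 in mutant and 138 to 218 in WT EGFP-positive cells. Myeloid markers summed to 269 to 450 in mutant and 348 to 1340 in WT EGFP-positive cells, and B cell markers to 189 to 254 in mutant and 207 to 324 in WT EGFP-positive cells. Platelet markers, of cells rich in Tgfb1, summed to 344 to 374 in mutant and 357 to 378 in WT EGFP-positive cells. All 4 markers of immature thymocytes lay below the array median on all 8 arrays. The part of these differences in the values of the 10 genes was not tested.

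Within WT mice, the receptors Tgfbr1 and Tgfbr3 differed between EGFP-positive and EGFP-negative cells in opposite directions. Of the 24 probe sets, 2 rose and 2 fell, against 0.706% higher and 0.395% lower of all probe sets. The median difference of the 24 was 0.04, against -0.01 over all probe sets. The comparison uses the same WT EGFP-positive arrays as the one above, and its EGFP-negative side is a single array, assumed to vary like the other groups.

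Tgfbr1 (1420895_at) read 10.55, 10.78 and 10.40 in WT EGFP-positive cells, against 9.01 on the WT EGFP-negative array, a 2.95-fold rise (difference 1.56, SE 0.18, adjusted p = 0.0093). On 1420893_a_at it read 7.55, 7.96 and 7.82, against 5.99, a 3.46-fold rise (adjusted p = 0.019). The probe set 1420894_at gave a difference of 1.72 that did not pass (adjusted p = 0.076). All 3 probe sets thus put each EGFP-positive array above the EGFP-negative one. Without WT EGFP-positive replicate 2 the 1420894_at probe set passed, with 1.45 (adjusted p = 0.015). The call on 1420893_a_at was lost if WT replicate 3 (0.073) was left out, or mutant EGFP-positive replicate 1 (0.055), which enters through the shared estimate of the spread.

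Tgfbr3 (1433795_at) read 9.12, 8.86 and 9.34 in WT EGFP-positive cells, against 11.31 on the WT EGFP-negative array. It fell 4.61-fold (difference -2.20, SE 0.24, adjusted p = 0.0078), the lowest adjusted p of the 24 in this comparison. On 1425620_at it fell 2.29-fold (difference -1.19, SE 0.21, adjusted p = 0.044). That call was lost if WT replicate 1 (0.13), WT replicate 3 (0.14), mutant replicate 2 (0.093) or mutant replicate 3 (0.058), all EGFP-positive, was left out. An intensity trend with a robust prior (0.054) or the stress mean as a covariate (0.067) also ended it. No Tgfbr1 or Tgfbr3 probe set was called when the fit held only the arrays of these groups or used the title number as a block.

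For the other 8 genes no probe set passed in this comparison. Tgfbr2 averaged 11.75 in WT EGFP-positive cells, against 12.28 on the WT EGFP-negative array (difference -0.53, adjusted p = 0.23). Smad7 averaged 9.98 in WT EGFP-positive cells, against 9.97 on the EGFP-negative array, a difference of 0.01 with a 95% interval of -1.03 to 1.06. Skil gave 0.42 on its brighter probe set (adjusted p = 0.78) and 1.21 on the dimmer one (adjusted p = 0.47), which passed without WT EGFP-positive replicate 2 (1.62, adjusted p = 0.019). Smad4 gave -0.40 on its brightest probe set (adjusted p = 0.66) and Tgfb1 0.21 (adjusted p = 0.80).

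Within mutant mice, no probe set of the 10 genes passed the test between EGFP-positive and EGFP-negative cells. The limma count was 0 of 24 against 0.0755% of all probe sets, with 6 of 24 at an unadjusted p under 0.05. The share of all probe sets under that unadjusted threshold was not counted, so the 6 are not read as particular to the 10 genes. Tgfbr1 (1420895_at) read 9.77, 9.80 and 9.91 in mutant EGFP-positive cells, against 9.77 on the mutant EGFP-negative array, a difference of 0.06 (adjusted p = 0.96, 95% interval -0.37 to 0.48). Tgfbr3 (1433795_at) read 9.50, 9.87 and 9.96, against 9.82, a difference of -0.05 (adjusted p = 0.98, 95% interval -0.61 to 0.52). On these probe sets the EGFP-negative array thus lay within or at the edge of the EGFP-positive arrays. It lay above all of them on Tgfbr1 1420894_at, at 6.78 against 6.39, 6.35 and 6.74. The same held for Tgfbr3 1425620_at, at 7.07 against 6.51, 6.87 and 6.97. Tgfb1 (1420653_at) averaged 10.23 in mutant EGFP-positive cells, against 9.66 on the EGFP-negative array (difference 0.57, adjusted p = 0.31).

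The test of the difference between the alleles (the interaction of allele and EGFP) called 0 of the 24 probe sets, against 0.04% of all probe sets. At an unadjusted p under 0.05 there were 5 of 24, and the share of all probe sets at that threshold was not counted. For Tgfbr1 the interaction was -1.50 (SE 0.26, adjusted p = 0.20), -2.0 (SE 0.35, adjusted p = 0.21) and -2.01 (SE 0.48, adjusted p = 0.43) on its 3 probe sets. For Tgfbr3 the interaction was 2.16 (SE 0.34, adjusted p = 0.15) and 0.91 (SE 0.29, adjusted p = 0.66). A difference between the alleles in the EGFP contrast was therefore not shown for these genes. Mutant EGFP-positive replicate 3 and WT EGFP-positive replicate 2 had the lowest stress means of their own groups. Without both, 2 Tgfbr1 probe sets passed, with -2.07 on 1420893_a_at (adjusted p = 0.031) and -1.86 on 1420894_at (adjusted p = 0.036). The share of all probe sets called in that fit is not given.

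**Figure D4:**
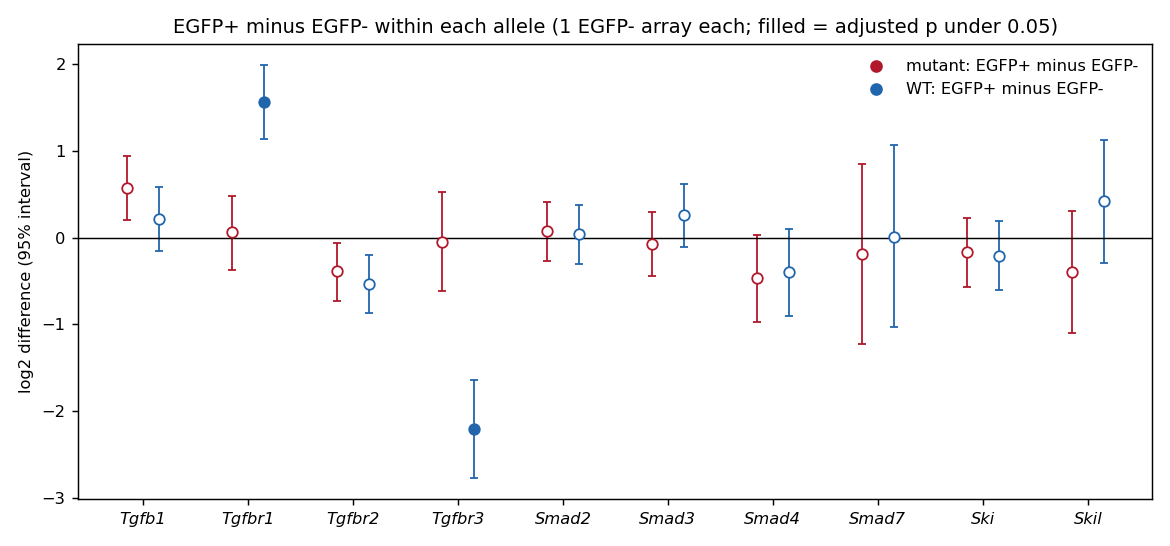
Log2 difference of EGFP-positive minus EGFP-negative cells with its 95% interval (vertical axis) for each gene on its brightest probe set, within mutant mice and within WT mice. Filled points have an adjusted p under 0.05, and only Tgfbr1 (1.56) and Tgfbr3 (-2.20) in WT mice are filled.

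The EGFP-negative arrays of the 2 alleles were compared as values, with no replicate and no test. Of the 24 probe sets, 16 were lower on the mutant EGFP-negative array than on the WT EGFP-negative one. A difference of at least 1 on the log2 scale was seen in 3 probe sets lower in mutant and 1 higher, where 1.72% and 2.82% of all probe sets were so. Smad7 (1423389_at) read 8.64 on the mutant and 9.97 on the WT EGFP-negative array. Smad4 (1422487_at) read 10.47 on the mutant and 11.58 on the WT EGFP-negative array. Both genes were thus lower on the mutant array in EGFP-negative as in EGFP-positive cells, as were 11 of the 15 probe sets that fell between the EGFP-positive groups. The share of all probe sets lower on the mutant EGFP-negative array, or lower in both kinds of cell, was not counted. The counts of 16 and 11 are therefore not read as particular to the 10 genes.

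Tgfbr1 and Tgfbr3 did not follow that order. Tgfbr1 (1420893_a_at) read 7.18 on the mutant and 5.99 on the WT EGFP-negative array, the reverse of the EGFP-positive cells. Tgfbr3 (1433795_at) read 9.82 on the mutant and 11.31 on the WT EGFP-negative array, also the reverse. Tgfbr2 (1426397_at), like Smad7 and Smad4, was lower in mutant in both kinds of cell, with 11.42 on the mutant and 12.28 on the WT EGFP-negative array. Across the 4 groups the Tgfbr2 levels ran in the order mutant EGFP-positive (mean 11.03), mutant EGFP-negative (11.42), WT EGFP-positive (11.75) and WT EGFP-negative (12.28), and neighbours that include a single array have no spread of their own.

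The other genes of the pathway were read from 4 lists, on the probe set with the highest mean of each gene. Of 62 measured genes, 10 fell and 4 rose in mutant EGFP-positive cells, against 6.02% lower and 10.4% higher of all genes on that basis. Their median difference was -0.09, against 0.02 over all genes. Most of the falls lay among regulators of the SMADs, with 7 of 29 lower, 1 higher and a median of -0.32.

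Those 7 include 3 ubiquitin ligases that act on SMADs or the receptor. Nedd4l read 6.42, 6.19 and 6.13 in mutant EGFP-positive cells, against 7.80, 7.66 and 7.89 in WT EGFP-positive cells, and fell by 1.54 (SE 0.13, adjusted p = 0.00034). Its dimmer probe sets gave differences between -0.74 and 0.08. Smurf1 fell by 0.81 (adjusted p = 0.0024) and Wwp1 by 0.73 (adjusted p = 0.0092). The coactivators Ep300 and Crebbp, acetyltransferases that SMADs recruit, fell by 0.89 and 0.65 (adjusted p = 0.029 and 0.016). Peli1, an E3 ligase, fell by 0.71 (adjusted p = 0.018), and Trim33, an E3 ligase that binds SMADs, by 0.48 (adjusted p = 0.023). With 1 EGFP-positive array left out, the calls on Nedd4l, Smurf1 and Wwp1 were kept, but with the stress mean as a covariate Wwp1 (adjusted p = 0.074), Crebbp (0.11), Peli1 (0.074) and Trim33 (0.18) no longer passed. Crebbp was lost without mutant replicate 1 or 2, Ep300 without WT replicate 1 or any mutant replicate, Peli1 without WT replicate 1 or mutant replicate 1 or 3, and Trim33 without any array but WT replicate 2. The title number block also ended the calls on Ep300 (0.076) and Trim33 (0.054).

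Runx3, a transcription factor that binds with SMADs, was the 1 regulator that rose, by 1.12 (adjusted p = 0.0035), while its other probe set gave 0.29. The inhibitory Smad6 read between 3.69 and 5.31 on all 8 arrays and gave a difference of 0.22 (adjusted p = 0.82). Tgif1, a repressor of SMADs, gave -2.31 with an SE of 0.71, and that did not pass (adjusted p = 0.079).

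Among 13 measured ligands and activators, 2 rose and 1 fell. Itgb8, the beta chain of an integrin that frees active TGF-beta, read 5.61, 5.88 and 5.70 in mutant EGFP-positive cells, against 7.47, 8.55 and 7.13 in WT EGFP-positive cells. It fell by 1.99 (SE 0.33, adjusted p = 0.0074), with no overlap. The mutant EGFP-negative array had 5.48 and the WT EGFP-negative array 4.67. The ligand gene Tgfb3 rose by 1.04 (adjusted p = 0.0066) at low levels, 5.81 to 6.06 in mutant and 4.52 to 5.09 in WT EGFP-positive cells. Furin, a protease that cleaves the precursor, rose by 0.62 (adjusted p = 0.041). That call was lost without mutant replicate 1 or 2 or WT replicate 1 or 3. It was also lost with the stress mean as a covariate (0.16) or quantile normalization again (0.051).

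Of 11 other receptors of the superfamily, 1 rose and 1 fell. The activin receptor gene Acvr1b fell by 1.14 (adjusted p = 0.0053), and its dimmer probe set gave -0.12. The BMP receptor gene Bmpr1a rose by 1.11 (adjusted p = 0.0013), with its other 5 probe sets between -0.12 and 1.64. In the branch that does not use SMADs, 1 of 9 genes fell, Mapk14 (p38 alpha), by 0.44 (adjusted p = 0.027). That call was lost without any 1 EGFP-positive array but WT replicate 2. It was also lost with the stress mean as a covariate (0.15) or the title number block (0.066). In the WT EGFP comparison, 2 of the 62 genes rose, against 1.02% of all genes: Itgb8 by 3.05 (adjusted p = 0.027) and Ldlrad4, an inhibitor of SMAD phosphorylation, by 1.36 (adjusted p = 0.018). The Itgb8 call was lost if WT replicate 1 or any mutant replicate of the EGFP-positive arrays was left out, and the Ldlrad4 call without WT replicate 1 or 3 or mutant replicate 1 or 2. Itgb8 was also lost with a pseudocount of 16 (0.091), the compared groups only (0.18) or the title number block (0.091), and Ldlrad4 with the compared groups only (0.13) or the block (0.092). Within mutant mice limma called 0 of the 62, against 0.0879% of all genes.

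**Figure D5:**
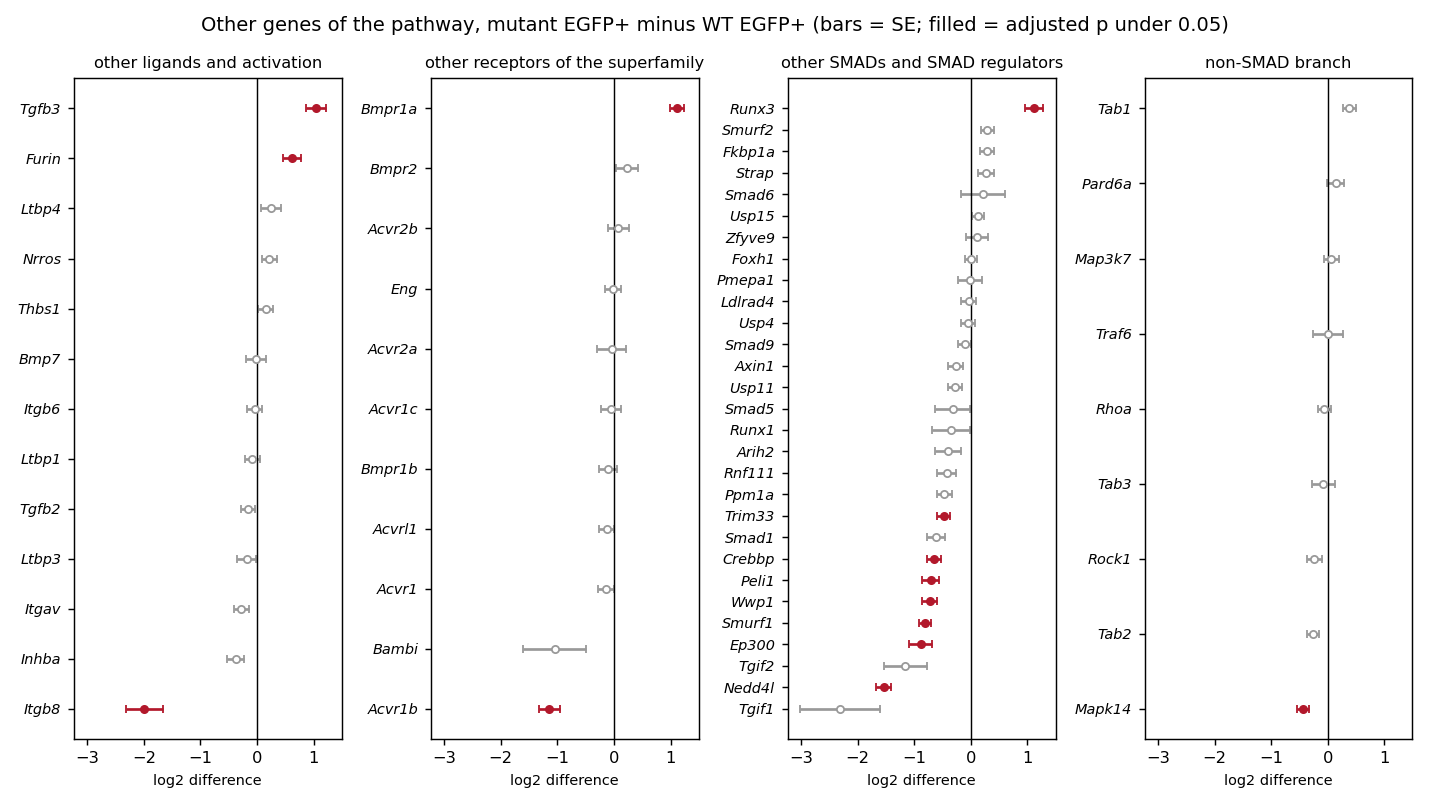
Log2 difference of mutant EGFP-positive minus WT EGFP-positive cells (horizontal axes) for the measured genes of the 4 pathway lists, 1 panel per list, with bars for the SE and filled points at an adjusted p under 0.05. The 4 genes that rose are Tgfb3, Furin, Bmpr1a and Runx3, and the 10 that fell include Itgb8 (-1.99) and Nedd4l (-1.54).

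Of 20 measured genes known to be induced by TGF-beta, 7 fell and 2 rose in mutant EGFP-positive cells, against 6.02% lower and 10.4% higher of all genes. Their median difference was -0.16, against 0.02 over all genes. The 7 include Ski, Skil and Smad7, whose falls were already counted above, so this count is not separate from them. Itgae, the integrin CD103, read 8.21, 8.50 and 7.39 in mutant EGFP-positive cells, against 9.72, 10.39 and 9.18 in WT EGFP-positive cells, and fell by 1.73 (adjusted p = 0.019). Id3, an inhibitor of E proteins, fell by 2.19 (adjusted p = 0.032), Gpr15, a homing receptor, by 1.96 (adjusted p = 0.011), and Nt5e, the ectonucleotidase CD73, by 1.49 (adjusted p = 0.0015). A rise was measured for Cdkn2b, a cell cycle inhibitor, of 2.48 (adjusted p = 0.00033), and for the chemokine receptor gene Ccr8 of 1.32 (adjusted p = 0.016). Pmepa1, a feedback inhibitor of the pathway, differed by -0.01 and Klf10 by 0.01, and neither passed. The Itgae call was lost without WT replicate 1 or mutant replicate 1 or with the stress mean as a covariate (0.092), the Ccr8 call without WT replicate 1 or mutant replicate 1 or 2, and the Id3 call without WT replicate 1 or 3 or mutant replicate 1 or 2. The title number block also ended the Ccr8 (0.06) and Id3 (0.085) calls, and an intensity trend with a robust prior that of Id3 (0.064).

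In WT mice, 4 of these 20 rose in EGFP-positive cells and limma called none lower, against 1.02% higher and 0.478% lower of all genes, with a median of 0.87. Itgae rose by 5.10 (adjusted p = 0.0057), with 9.72, 10.39 and 9.18 in WT EGFP-positive cells, against 4.66 on the WT EGFP-negative array. Nt5e rose by 2.91 (adjusted p = 0.0028) and Ccr8 by 2.48 (adjusted p = 0.026). The fourth was Ldlrad4. The Ccr8 call was lost if WT replicate 1, WT replicate 3 or mutant replicate 1 of the EGFP-positive arrays was left out, and with the compared groups only (0.12), the block (0.22) or a pseudocount of 16 (0.1). The block also ended the Nt5e call (0.061).

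Genes known to be repressed by TGF-beta in T cells were mostly higher in mutant EGFP-positive cells, with 9 of 15 higher, 1 lower and a median of 1.07, against 10.4% higher, 6.02% lower and a median of 0.02 over all genes. The effector genes led. The protease gene Gzma read 11.89, 11.96 and 11.37 in mutant EGFP-positive cells, against 5.37, 5.83 and 5.47 in WT EGFP-positive cells, a rise of 6.18 (adjusted p = 1.4e-05). The cytokine gene Il4 rose by 5.01 (adjusted p = 3e-06), Gzmb, a protease of cytotoxic granules, by 4.69 (adjusted p = 6.9e-06) and Ifng by 4.05 (adjusted p = 0.00045). Tbx21, which encodes T-bet, rose by 3.46 (adjusted p = 0.00031) and Fasl, a death ligand, by 1.62 (adjusted p = 0.0074). Klrg1, an inhibitory receptor, fell by 1.23 (adjusted p = 0.0081). The mean level of the 15 genes was 8.87, 8.70 and 8.66 on mutant EGFP-positive arrays and 8.63 on the mutant EGFP-negative array. It was 6.76, 6.89 and 6.86 on WT EGFP-positive arrays and 6.78 on the WT EGFP-negative array. Within mutant mice limma called 0 of the 15 between EGFP-positive and EGFP-negative cells, against 0.0879% of all genes. In WT EGFP-positive cells relative to WT EGFP-negative cells, Klrg1 rose by 3.85 and Gzmb by 2.29 (adjusted p = 0.0022 each), and Il4 fell by 1.34 (adjusted p = 0.0095). The Il4 call was lost with the compared groups only (0.077) or the title number block (0.11), and the Klrg1 call between the EGFP-positive groups with the stress mean as a covariate (0.071).

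The genes whose pattern over the 8 arrays was most like that of each gene were ranked by the root mean square difference of gene-centred log2 values. For Tgfbr1 these were Ralgds, Pou2f2 and Rapgef5, at 0.144 to 0.18, against a range of 1.76 for Tgfbr1 itself. For Tgfbr2 they were Camk1d, 2900093K20Rik and Rhobtb2, at 0.0527 to 0.0787 for a range of 1.30. For Tgfbr3 they were Pxylp1, Snn and Ibtk, at 0.302 to 0.325 for a range of 2.45. For Smad7 they were Pde4b, Samd8 and Gpr132, at 0.236 to 0.261 for a range of 2.37.

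For Smad4 they were Dock2, Eif4a2 and Pde4d (0.119 to 0.129, range 1.24), and for Skil they were Zkscan14, Kcnh2 and Tsc22d2 (0.117 to 0.123, range 1.55). Smad3 was closest to Pcnx, Ankrd13c and Clock (0.0528 to 0.0591, range 0.65). Ski was closest to Fam160a2, Trim33 and Vezf1 (0.0537 to 0.084, range 0.83). Trim33 also belongs to the list of SMAD regulators.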

How the data were processed

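RNA of sorted CD4+ T cells was hybridised to 8 Affymetrix arrays, 3 per EGFP-positive group and 1 per EGFP-negative group. Per the submitters' processing notes, RMA gave the deposited intensity values, which the authors left on a linear scale. The sources used here give neither its version nor whether all arrays were processed together. The deposited values were taken to log2 with no pseudocount, and 64 control probe sets were left out. Of the other 45037, the platform annotation gives 34945 a single gene symbol, 932 several and 9160 none. No processing batch is named, and no 2 arrays held identical values. The sample titles carry numbers that start with 76, 82 or 85, and what these mark is not given. Both EGFP-negative arrays start with 76, as does replicate 1 of each EGFP-positive group. The other EGFP-positive arrays start with 82 or 85, so the EGFP comparisons are partly mixed with the title number. Replicate numbers within a group only name the arrays.

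A mean per group was fitted across all 8 arrays with limma 3.58.1 in R 4.3.3, with 4 residual and 3.72 prior degrees of freedom. Tests were two-sided, adjusted by Benjamini-Hochberg over all 45037 probe sets at 0.05. An exact permutation test of 3 arrays against 3 cannot go below a p of 0.1. The number of arrays limits the precision. For lists, each gene was read on its probe set with the highest mean.

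Named were every probe set of the 10 genes, Foxp3, up to 6 called genes per list and comparison with the largest absolute difference, and for each gene called the 3 others with the most similar pattern among genes with a mean above the median. Other genes are given for context. The 10 genes and the lists were chosen with earlier results of these data known. The alternatives were median centring, quantile normalization again, a pseudocount of 16, a filter at the median level, an intensity trend with a robust prior, array weights, the compared groups only, a block on the title numbers, each EGFP-positive array left out, 2 arrays left out together, and the stress list mean as a covariate.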

Additional observations from a re-analysis of the deposited data

How the results depend on the processing

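Of the 24 probe sets, 16 passed between mutant and WT EGFP-positive cells. That count was 7 with the stress list mean as a covariate, between 7 and 14 with 1 array left out, and 12 to 16 otherwise. The title number block ended the calls on Tgfbr1 1420894_at (0.064), Tgfbr3 1433795_at (0.054), Smad3 1454960_at (0.064) and Ski 1429192_at (0.059). Median centring (0.05) or array weights (0.053) ended that on Smad4 1422487_at. Quantile normalization again ended that on Tgfbr3 1433795_at (0.05), and a pseudocount of 16 that on Skil 1422054_a_at (0.055). A call was kept under all alternatives run by 5 probe sets, 1 each of Tgfbr1 (-0.95 to -0.65), Tgfbr2 (-0.77 to -0.69), Smad4 (-0.76 to -0.65), Smad7 (-2.0 to -1.02) and Ski (-1.01 to -0.80). How many of all 45037 probe sets kept a call throughout was not counted, so the 5 are not read as particular to these genes. Within WT mice the count of 4 was 0 with the compared groups only, 0 with the title number block, and 2 to 6 with 1 array left out. The shares of all probe sets called in those WT fits are not given. The interaction called 2 without the array of lowest stress mean in each EGFP-positive group, and 0 otherwise. The EGFP contrast in mutant mice called 0 throughout. The pathway lists' count of 14 was 33 of 181 with every probe set, against 7.35% higher and 5.39% lower of all probe sets. It was 8 to 19 with 1 array left out. For mutant over WT EGFP-positive cells, the fits with 1 array left out called 2081 to 3791 of all 45037 probe sets higher and 1267 to 3765 lower. With all arrays those counts were 3308 and 2426. Signs changed only among values that did not pass. For mutant over WT EGFP-positive cells, Tgfb1 1445360_at gave 0.01 after median centring, 0.02 after quantile normalization, 0.10 with the covariate and -0.07 to 0.08 with 1 array left out, Tgfbr3 1425620_at gave -0.10 with the covariate, and Tgfbr2 1422019_at -0.01 to 0.07 with 1 array left out. Within WT mice, Smad7 1423389_at gave -0.01 after median centring, -0.43 with the covariate and -0.24 to 0.39 with 1 array left out, Smad7 1443771_x_at -0.35 with the covariate and -0.09 to 0.34 with 1 array left out, and Smad2 1420634_a_at -0.01 with the block. Within mutant mice the block gave 0.16 for Skil 1422054_a_at, 0.20 for Smad7 1423389_at and 0.01 for Smad3 1454960_at, and Tgfbr3 1433795_at gave -0.14 to 0.09 with 1 array left out. The causes were not tested, beyond the fewer arrays in the fits that left arrays out. Replicate numbers were given in accession order and pair no samples. Title numbers that start alike join 1 mutant and 1 WT EGFP-positive array each. The deviations of such arrays correlated at 0.121, 0.0457 and -0.102, so they were not taken as pairs. The block on title numbers, an alternative only, called 12 of the 24, all lower. In that fit 2706 of all 45037 probe sets were higher and 2000 lower. Between arrays whose title numbers start alike, the mutant minus WT difference of Smad7 1423389_at was -1.77, -0.71 and -2.09. That of Tgfbr3 1433795_at was 0.39, 1.01 and 0.62.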
